A study of Arabidopsis thaliana with 12 samples.

Results

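The comparison described here was between control cultures of Arabidopsis thaliana seedlings harvested 4 h and 1 h after ethanol was added, on 3 arrays at each time, which are 6 of the 12 arrays of the series. All cultures were Col-0 seedlings grown in liquid medium with sucrose until day 9, moved to darkness for 24 h and kept dark after the addition. The ethanol groups, 4 h and 1 h, received the solvent alone. The other 6 arrays, 3 at 4 h and 3 at 1 h, came from cultures given 10 µM oligomycin in the same volume of ethanol. They are used below to set the same hours beside these. Their spread also enters the p-values and intervals of the ethanol comparison, except where the ethanol arrays were fitted alone. No array of untreated seedlings or of seedlings before the addition was analysed here, so the ethanol, the handling and the further hours in the dark cannot be told apart. A flask held many seedlings, each array is one labelled biological replicate, and whole seedlings mix roots and shoots.

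Seedlings kept in the dark shut down the light-dependent steps of chlorophyll synthesis, draw on starch and amino acids, and go on keeping time with a circadian clock whose genes peak in turn. Ethanol at low dose can be oxidised through acetaldehyde and acetate by enzymes that also serve fermentation when oxygen is short. Handling of seedlings, such as opening or shaking a flask, is known to set off short-lived touch and wound transcripts. A solvent control harvested at more than one time shows how far these processes move transcripts without the inhibitor.

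Transcript levels are the deposited array intensities, on a scale where the 2% trimmed mean of every array was near 100, and they were compared as log2(intensity + 16). The added 16 makes the log2 change of a dim gene smaller than the change of its intensity. A transcript is said to have risen or fallen only where the limma p adjusted over all 22746 tested probe sets was under 0.05. Of those probe sets 13513 were named by 1 gene, covering 13350 genes, and the others are counted but cannot be named here. Intensities depend on the probes, so levels of different genes are not set against each other.

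Over the 3 h between the harvests most log2 changes in the ethanol cultures were small. The log2 changes, 4 h minus 1 h, had a median of -0.03 and their 5% and 95% quantiles were -0.34 and 0.27. A log2 change above 1 was seen for 23 probe sets and one below -1 for 6. The 95% confidence interval of the change, which reached a median of 0.27 to either side of the estimate, lay inside -1 to 1 for 22474 probe sets (98.8%) and inside -0.5 to 0.5 for 16464 (72.4%). For most probe sets a change of 1 in either direction, on the log2 scale with the added constant, was thus outside the interval. The constant shrinks the changes of dim probe sets, and the dimmest 40% had a mean intensity below 28.0. For these, an interval inside -1 to 1 does not exclude a larger log2 change of the intensity itself.

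**Figure D1:**
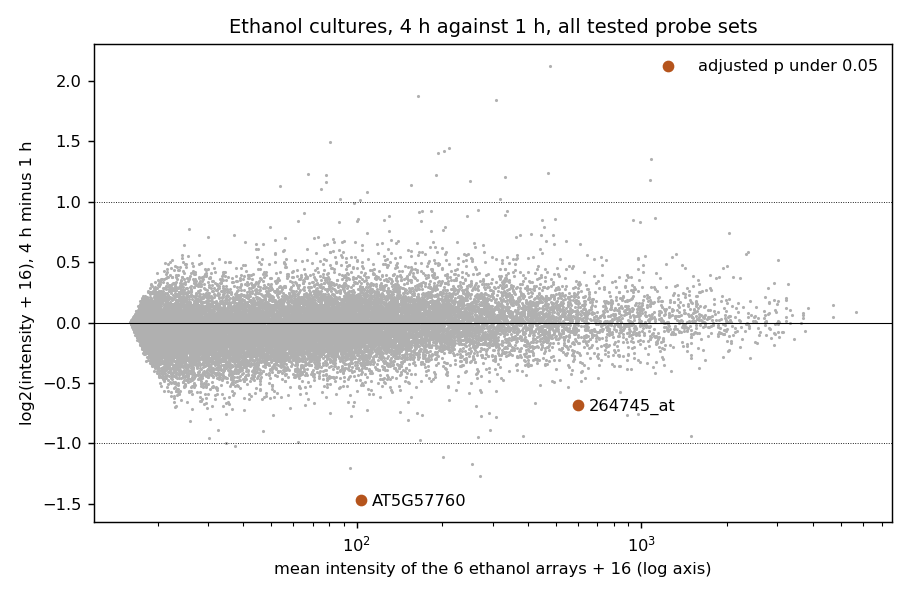
Log2 change of every tested probe set, 4 h minus 1 h in the ethanol cultures, against its mean intensity over the 6 arrays plus 16 on a log axis. The dotted lines mark changes of 1 and -1, and the 2 larger points are the probe sets that fell, AT5G57760 at -1.47 and 264745_at at -0.69.

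Limma called 0 rises and 2 falls (0.00879% of the probe sets tested). At an unadjusted p under 0.05 it counted 991 rises (4.36%) and 1721 falls (7.57%). The 3 arrays of 4 h lay above all 3 arrays of 1 h for 1154 probe sets (5.07%) and below all of them for 2071 (9.1%). These shares are the background for the counts of overlap given below.

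AT5G57760, a gene on chromosome 5, was lower in every 4 h culture. Its intensity was 35.6, 41.2 and 37.3 at 4 h, against 179.9, 104.5 and 126.2 at 1 h, so that the groups did not overlap. It fell by 1.47 on the log2 scale (95% confidence interval -1.79 to -1.15, adjusted p = 0.00749), with means of 38.0 ± 2.87 at 4 h and 137 ± 38.8 at 1 h (SD, n = 3). In the oligomycin cultures it fell by 1.00 over the same hours (adjusted p = 0.000225), and the difference between the time changes was not past the threshold (0.47, adjusted p = 0.148). The adjusted p of the ethanol fall was 0.0524 without 1 h replicate 3, 0.0752 without 4 h replicate 1 and 0.445 when the ethanol arrays were fitted alone.

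The other call was probe set 264745_at, which has no single gene name here. Its intensity was 441.5, 437.6 and 451.9 at 4 h, against 724.6, 711.5 and 734.9 at 1 h, with little spread within either group. It fell by 0.69 on the log2 scale (95% confidence interval -0.88 to -0.50, adjusted p = 0.0487). This call lay close to the threshold and was kept under 6 of 17 alternative settings, with an adjusted p up to 0.445. In the oligomycin cultures the log2 change was -0.13 (adjusted p = 0.299), and here the difference between the time changes was called (0.56, adjusted p = 0.0081).

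No other single gene passed the test, and the genes named from here on had values that did not pass it. Apart from the brightest member of each list, they were singled out after their values had been seen. AT2G43140 had 25.7, 26.1 and 26.6 at 4 h, against 47.2, 44.7 and 49.6 at 1 h, a log2 change of -0.58 (adjusted p = 0.0784). AT4G35720 had 80.1, 80.3 and 77.4 at 4 h, against 133.7, 123.8 and 131.9 at 1 h, a log2 change of -0.61 (adjusted p = 0.0784). The groups overlapped for neither gene, and the spread within them was small.

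EXO, the EXORDIUM gene known for its response to brassinosteroid, had 311.4, 349.4 and 272.2 at 4 h, against 530.1, 443.5 and 528.3 at 1 h (log2 change -0.66, adjusted p = 0.128). AT1G73600, which encodes a phosphoethanolamine methyltransferase of phosphocholine synthesis, had 266.6, 196.0 and 270.5 at 4 h, against 556.5, 338.5 and 580.7 at 1 h (log2 change -0.94, adjusted p = 0.128). AT5G02540 had 85.8, 99.3 and 143.0 at 4 h, against 352.8, 158.5 and 275.1 at 1 h (log2 change -1.11, adjusted p = 0.128). All 4 h values of these 3 genes were below all 1 h values, with 1 h replicate 2 the lowest of its group each time.

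In the other direction, AT4G33720, a member of the PR-1-like family of secreted proteins, had 1119.5, 1830.0 and 1420.0 at 4 h, against 576.7, 905.8 and 460.1 at 1 h (log2 change 1.18, adjusted p = 0.208). AT5G40690 had 176.1, 162.2 and 118.4 at 4 h, against 61.2, 105.5 and 61.8 at 1 h (log2 change 0.89, adjusted p = 0.129). CCS, the copper chaperone of superoxide dismutase, had 177.3, 151.2 and 177.6 at 4 h, against 112.6, 104.2 and 111.8 at 1 h (log2 change 0.55, adjusted p = 0.128). The groups did not overlap for any of these 3 genes, and for the first 2 the 1 h replicate 2 stood above the other 1 h arrays.

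**Figure D2:**
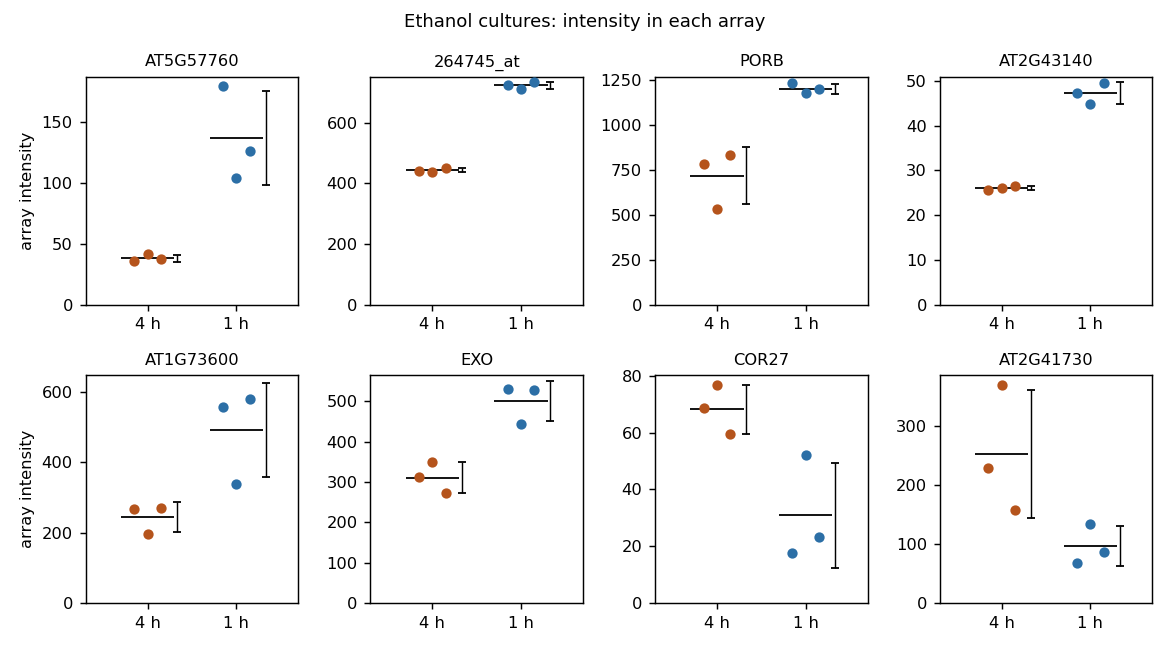
Array intensity of 8 genes or probe sets in each ethanol culture, 4 h to the left and 1 h to the right, with the mean as a bar and the SD as an error bar (n = 3). AT5G57760 and 264745_at fell and the other 6 did not pass the test, though the 3 values at 4 h lie apart from the 3 at 1 h in all 8 panels.

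One array touches most of these values. Among the 1 h cultures, replicate 2 correlated with the others at 0.975 and 0.979, against 0.989 between replicates 1 and 3, while the 4 h arrays correlated with each other at 0.987 to 0.988. Without it, limma called 133 probe sets, 90 rises (0.396%) and 43 falls (0.189%), of which 62 had a single gene name. For 89 of the 90 rises its value was above both other 1 h arrays, and for 52 it was at or above the lowest 4 h array. For 41 of the 43 falls its value was below both other 1 h arrays, and for 14 it was at or below the highest 4 h array. Calls gained by leaving out an array favour probe sets where that array lay toward the other time. These counts therefore describe the calls and are no separate evidence about the array. The sources used here do not say how this culture was handled, and the reason was not tested.

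RNA control probe sets differed between the times as well. The ratio of the 3' to the 5' probe set of GAPDH was 0.963, 1.02 and 1.06 at 4 h, against 1.13, 1.25 and 1.19 at 1 h. That of actin was 13.8, 16.4 and 18.8 at 4 h, against 14.2, 12.7 and 12.2 at 1 h, so the groups overlapped and the means differed in the opposite direction. Their part in the results was not tested. Few markers of the tissue in the label were measured. None was at 0, but an ethanol array held only 4 to 17 zeros among all its probe sets, so this is no test of expression. The summed intensity of 11 of 58 nuclear photosynthesis genes was 7704.2 to 9233.1 at 4 h, against 7365.6 to 9256.3 at 1 h. For 3 of 13 root markers it was 93.8 to 149.7 at 4 h, against 100.4 to 147.2 at 1 h, and for 2 of 10 leaf epidermis markers 31.8 to 52.0 at 4 h, against 35.2 to 50.6 at 1 h. All 3 sets overlapped between the times, the brightest root marker being AT4G26010 (63.2 ± 16.0 at 4 h and 64.6 ± 15.9 at 1 h, log2 change -0.02).

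Of the circadian clock genes, 8 of the 50 listed were measured, and 0 rose and 0 fell. Their median log2 change was -0.00022, against -0.03 over all probe sets. COR27, a cold-regulated gene that acts on the evening part of the clock, had 68.5, 76.7 and 59.4 at 4 h, against 17.4, 52.0 and 23.2 at 1 h. The groups did not overlap and the log2 change was 0.91 (adjusted p = 0.149). It was 1.21 without 1 h replicate 2, whose 52.0 stood apart from its group, and it then passed the test (adjusted p = 0.00511). With all arrays kept it is not counted as a rise in ethanol. It rose by 1.77 in the oligomycin cultures over the same hours (adjusted p = 3.31e-05).

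Its relative AT4G33980 (COR28) had 73.9, 65.7 and 69.4 at 4 h, against 34.3, 54.2 and 37.4 at 1 h, with no overlap (log2 change 0.58, adjusted p = 0.241). GI, the GIGANTEA gene of photoperiod timing, had 139.0, 114.2 and 116.5 at 4 h, against 147.5, 136.3 and 144.2 at 1 h, and the groups overlapped (log2 change -0.19, adjusted p = 0.415). TIC, the clock regulator TIME FOR COFFEE, had a log2 change of -0.11 (95% confidence interval -0.36 to 0.15). CCL, the brightest member, had 742.0, 570.4 and 578.1 at 4 h, against 604.1, 729.4 and 697.5 at 1 h (log2 change -0.11, 95% confidence interval -0.36 to 0.15). The third gene with no overlap was AT4G01280, with means of 73.5 ± 1.32 at 4 h and 62.5 ± 7.10 at 1 h (SD, n = 3; log2 change 0.19, adjusted p = 0.486). The 5 others overlapped between the times, and 5.07% of all probe sets had all 4 h values above all 1 h values.

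Chlorophyll synthesis was measured by 6 of 26 listed genes, of which 0 rose and 0 fell, with a median log2 change of -0.03. PORB, one of the protochlorophyllide oxidoreductases that carry out the light-requiring step, had 782.4, 533.4 and 829.3 at 4 h, against 1228.7, 1174.0 and 1197.1 at 1 h. All 4 h values were below all 1 h values (log2 change -0.76, 95% confidence interval -1.05 to -0.47, adjusted p = 0.128). PORB passed the test when the dimmest 40% of probe sets were left out before adjustment (adjusted p = 0.0381), a setting that called 0.315% of the probe sets kept, and in the oligomycin cultures it fell by 0.90 (adjusted p = 0.000263). The brightest member, AT1G74470, the geranylgeranyl reductase that makes the phytol tail, had 1172.5, 1049.2 and 951.8 at 4 h, against 1210.1, 1145.4 and 1174.8 at 1 h (log2 change -0.16, 95% confidence interval -0.44 to 0.13). The other 5 genes overlapped between the times, and 9.1% of all probe sets had all 4 h values below all 1 h values.

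Nuclear genes of photosynthesis gave 0 rises and 0 falls among 11 measured of 58 listed, with a median log2 change of -0.03 and a range of -0.29 to 0.24. PSAE-1, a photosystem I subunit and the brightest of them, had 1707.7, 1593.8 and 1370.6 at 4 h, against 1494.0, 1718.6 and 1161.5 at 1 h. LHCB4.1, an antenna protein of photosystem II, had a log2 change of 0.12 (95% confidence interval -0.20 to 0.43), and RCA, rubisco activase, one of -0.06 (95% confidence interval -0.29 to 0.18). The groups overlapped for 10 of the 11. SBPASE, the Calvin cycle phosphatase, was the exception, with 293.7, 267.1 and 273.7 at 4 h, against 338.0, 307.2 and 310.2 at 1 h (log2 change -0.19, adjusted p = 0.404). All 4 h values lay below all 1 h values for 9.1% of all probe sets, so this is near the background share.

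Transcripts of the chloroplast genome had a lower median change than the array as a whole. Of 69 measured genes 0 rose and 0 fell, their median log2 change was -0.24 against -0.03 over all probe sets, and 25 had all 4 h values below all 1 h values, as did 9.1% of all probe sets, while 0 had them above. The median stayed between -0.33 and -0.18 under all alternative settings. Their summed intensity was 29067, 30781.7 and 28661.7 at 4 h, against 36619.4, 32682.4 and 33351.4 at 1 h, so that every 4 h sum was below every 1 h sum. Neighbouring chloroplast genes are often transcribed together, so the 69 values are not independent. Fewer chloroplast transcripts per cell, fewer cells that carry them and a difference in the RNA or its labelling cannot be told apart here. The GAPDH ratio given above also separated the times, and its part in these values was not tested.

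Within that genome, rps18, a ribosomal protein gene, had 94.8, 80.4 and 96.0 at 4 h, against 138.1, 124.6 and 167.8 at 1 h (log2 change -0.58, adjusted p = 0.142). Another ribosomal protein gene, rpl36, had 457.2, 688.5 and 864.8 at 4 h, against 958.4, 879.8 and 1097.9 at 1 h (log2 change -0.58, adjusted p = 0.267). The RNA polymerase gene rpoC1 had 58.4, 64.9 and 69.7 at 4 h, against 90.9, 92.3 and 95.2 at 1 h (log2 change -0.44, adjusted p = 0.244). None of these 3 overlapped between the times. By contrast rbcL, the large subunit of rubisco, had a log2 change of 0.03 (95% confidence interval -0.29 to 0.36), and psbA, the D1 protein of photosystem II, one of 0.01 (95% confidence interval -0.34 to 0.35). The brightest member, atpB of the chloroplast ATP synthase, had 3711.4, 3345.0 and 2761.9 at 4 h, against 3865.1, 3523.7 and 3367.6 at 1 h, and overlapped (log2 change -0.14).

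A photosystem I gene, psaI, had 101.0, 112.2 and 97.8 at 4 h, against 232.0, 105.1 and 188.0 at 1 h (log2 change -0.61, adjusted p = 0.296). Here 1 h replicate 2 lay among the 4 h values, and without it the fall was called (-0.91, adjusted p = 0.0310). The same 69 genes had a median log2 change of -0.09 in the oligomycin cultures, where 4 fell, against 22.8% of all probe sets. Their summed intensity in oligomycin was 32073.3, 31511.1 and 34930.7 at 4 h, against 36163, 38414.2 and 35197 at 1 h. These sums did not overlap, while the medians of the 69 genes per oligomycin array did. The difference between the time changes was called for 0 of the 69, against 17.8% of all probe sets.

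Genes that mark darkness and sugar starvation showed 0 rises and 0 falls among 9 measured of 35 listed. Their median log2 change was 0.14, or 0.08 without 4 h replicate 2. The brightest, AT3G15450, had 667.9, 690.6 and 809.0 at 4 h, against 686.0, 868.9 and 716.8 at 1 h (log2 change -0.06, 95% confidence interval -0.30 to 0.17). IVD, the isovaleryl-CoA dehydrogenase of leucine breakdown, had 171.4, 139.6 and 157.9 at 4 h, against 96.5, 152.6 and 112.9 at 1 h (log2 change 0.35, adjusted p = 0.362). MCCA, a methylcrotonyl-CoA carboxylase subunit of the same pathway, had a log2 change of 0.20 (95% confidence interval -0.14 to 0.53). These 3 genes overlapped between the times. AKINBETA1, a subunit of the SnRK1 energy sensor, had 203.6, 229.4 and 200.6 at 4 h, against 191.7, 198.3 and 181.5 at 1 h, which did not overlap (log2 change 0.14, adjusted p = 0.614). All 9 intervals of this list lay inside -1 to 1.

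Starch metabolism had 4 measured genes of 29 listed, 0 called, with a median of -0.07. PWD, the phosphoglucan water dikinase of starch breakdown and the brightest of them, had 206.1, 201.8 and 196.1 at 4 h, against 186.1, 207.8 and 185.5 at 1 h (log2 change 0.06, 95% confidence interval -0.12 to 0.24). Autophagy genes, the ATG8 group that builds the membrane of the recycling vesicle, had 9 measured of 12 listed, 0 called, and a median of 0.06. The brightest, ATG8F, had 708.5, 865.7 and 700.7 at 4 h, against 671.7, 922.0 and 694.7 at 1 h (log2 change -0.00066). ATG8E had 187.6, 272.5 and 176.2 at 4 h, against 134.5, 179.2 and 124.8 at 1 h, the largest log2 change of the 9 (0.48, adjusted p = 0.318). The groups overlapped for all 9.

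Of the genes listed for ethanol use and low oxygen, 6 of 20 were measured. Of these 0 rose and 0 fell, with a median log2 change of 0.30. The median was 0.16 without 1 h replicate 1 and 0.18 without 4 h replicate 2. Pyruvate decarboxylase PDC2, the entry step of fermentation, had 384.4, 448.0 and 321.8 at 4 h, against 218.0, 400.3 and 253.7 at 1 h, and overlapped (log2 change 0.42, 95% confidence interval -0.02 to 0.86). The brightest, ALDH7B4, an aldehyde dehydrogenase, had 932.1, 1067.6 and 718.6 at 4 h, against 481.6, 1139.1 and 579.6 at 1 h (log2 change 0.38, 95% confidence interval -0.18 to 0.94). Both genes had 1 h replicate 2 far above the other 1 h arrays, and without it ALDH7B4 had a log2 change of 0.74. ALDH2C4, another aldehyde dehydrogenase, had 636.6, 770.3 and 637.8 at 4 h, against 598.8, 587.2 and 588.8 at 1 h, with no overlap (log2 change 0.19, adjusted p = 0.421). ACS, the acetyl-CoA synthetase that takes up acetate, had 582.5, 534.2 and 600.3 at 4 h, against 585.8, 519.8 and 610.5 at 1 h (log2 change 0.0022, 95% confidence interval -0.19 to 0.19).

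Touch, wound and elicitor genes gave 0 rises and 0 falls among 10 measured of 45 listed, with a median of 0.06. CML38, a calmodulin-like protein and the brightest, varied widely within both times, with 171.3, 450.2 and 325.2 at 4 h, against 79.2, 251.3 and 294.0 at 1 h (log2 change 0.64, 95% confidence interval -0.32 to 1.60). WRKY53, a transcription factor of stress and ageing, was dim, with 23.8, 28.6 and 30.7 at 4 h, against 18.5, 26.2 and 28.8 at 1 h. All 10 overlapped between the times. In the oligomycin cultures 7 of the 10 rose over the same hours, as did 10.8% of all probe sets. The difference between the time changes was called for 6, all upward, as for 7.2% of all probe sets. This list too was chosen with earlier results of these data known, so the counts are a description only.

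Genes of small heat shock proteins, chaperones that hold unfolding proteins, varied widely among the control cultures. Of 21 listed 11 were measured, and 0 rose and 0 fell, with a median log2 change of 0.76. AT1G53540 had 251.6, 431.6 and 115.9 at 4 h, against 31.5, 306.3 and 34.8 at 1 h (log2 change 1.45, 95% confidence interval 0.10 to 2.80, adjusted p = 0.385). AT2G29500, the brightest, had 357.5, 541.5 and 269.8 at 4 h, against 86.6, 418.6 and 142.6 at 1 h (log2 change 1.02, adjusted p = 0.366). In both the 1 h replicate 2 lay among the 4 h values, and the other two 1 h arrays lay below all of them.

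AT1G52560 had 46.1, 93.8 and 28.4 at 4 h, against 5.9, 48.9 and 4.2 at 1 h (log2 change 1.13, adjusted p = 0.307). ATHSP22.0, of the endoplasmic reticulum, had 126.3, 181.2 and 115.1 at 4 h, against 50.6, 157.9 and 49.4 at 1 h (log2 change 0.76, adjusted p = 0.376). AT1G54050 had 224.3, 536.3 and 227.3 at 4 h, against 66.7, 222.2 and 127.8 at 1 h (log2 change 1.17, adjusted p = 0.278). AT1G54050 and AT5G51440 were the 2 members of 11 with no overlap, their 4 h values lying above, as for 5.07% of all probe sets.

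The same arrays stood out in other stress genes, with replicate 2 the highest at each time. HSA32, a heat-associated protein, had 105.8, 175.8 and 106.0 at 4 h, against 55.1, 150.6 and 60.9 at 1 h. Hop3, a co-chaperone of HSP90 and HSP70, had 156.2, 204.0 and 146.6 at 4 h, against 87.8, 176.9 and 108.4 at 1 h. TIL, a temperature-induced lipocalin, had 1004.8, 1635.4 and 1010.6 at 4 h, against 458.5, 1206.0 and 515.9 at 1 h. Without 1 h replicate 2, 5 of the 11 small heat shock genes rose, against 0.396% of all probe sets, and their median was 1.17. HSA32, Hop3 and TIL rose too (log2 changes 0.94, 0.69 and 1.26, adjusted p = 0.0428, 0.0482 and 0.0310). AT1G53540 then had a log2 change of 2.35 (adjusted p = 0.0340). The array left out was the highest 1 h array in HSA32, Hop3, TIL and AT1G53540, so leaving it out could only enlarge their changes. These calls are therefore no separate support for a rise. The list of small heat shock genes was written after the values had been seen. The summed intensity of its 11 genes was 1807.6, 2820.5 and 1598.1 at 4 h, against 881.5, 2040.9 and 1091.9 at 1 h, so the cultures of a single time were spread widely and the times overlapped. Each 4 h sum was above the 1 h sum of the same replicate number, though the numbers were not taken as pairs.

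**Figure D3:**
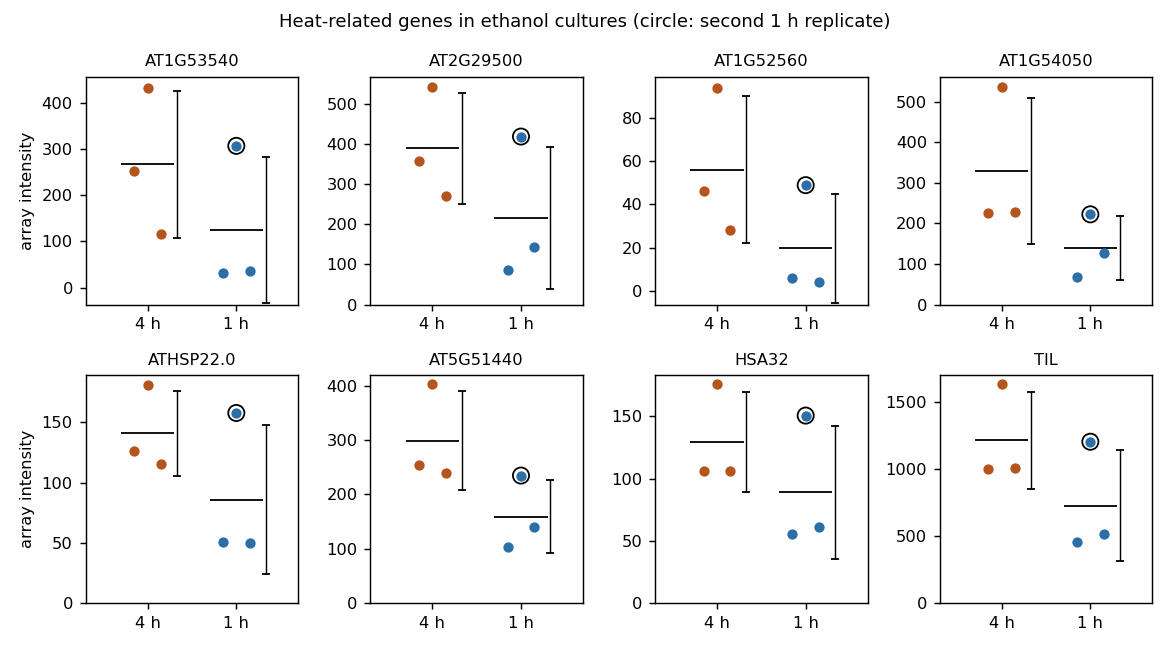
Array intensity of 6 small heat shock genes, HSA32 and TIL in each ethanol culture, 4 h to the left and 1 h to the right, with the mean as a bar and the SD as an error bar (n = 3). The circled 1 h replicate 2 is the highest 1 h value in all 8 panels, and it lies at or above the lowest 4 h value in 6 of them, all but AT1G54050 and AT5G51440.

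AT3G29970 showed the same split more sharply. It had 1454.2, 1407.4 and 1392.3 at 4 h, against 277.5, 1451.5 and 391.9 at 1 h. Its log2 change was 1.36 (adjusted p = 0.262), and 2.05 without 1 h replicate 2 (adjusted p = 0.00311). The value of that culture lay within the range of the 4 h cultures, and the other two 1 h cultures were below it.

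Nuclear genes of the mitochondrial dysfunction response, which plant cells use when respiration is disturbed, gave 0 rises and 0 falls among 9 measured of 16 listed. Their median log2 change was 0.36, and 4 of the 9 had all 4 h values above all 1 h values, as did 5.07% of all probe sets. AT2G41730 had 229.4, 371.2 and 157.4 at 4 h, against 68.1, 134.0 and 86.3 at 1 h (log2 change 1.22, 95% confidence interval 0.67 to 1.77, adjusted p = 0.128), on a probe set that may detect more than 1 transcript. It passed the test without 1 h replicate 2 (1.46, adjusted p = 0.0354) and without the dimmest 40% (adjusted p = 0.0432). AT2G21640, the brightest, had 272.6, 384.0 and 241.3 at 4 h, against 172.5, 233.5 and 156.9 at 1 h (log2 change 0.62, adjusted p = 0.230). AT5G51440, a mitochondrial small heat shock protein that is also in the list above, had 254.5, 403.0 and 239.0 at 4 h, against 102.7, 234.4 and 139.7 at 1 h (log2 change 0.88, adjusted p = 0.222).

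NDB2, an external NADH dehydrogenase of mitochondria, had 92.3, 65.3 and 91.6 at 4 h, against 64.9, 92.9 and 71.0 at 1 h, and overlapped (log2 change 0.10, 95% confidence interval -0.20 to 0.40). All 9 genes of this list rose in the oligomycin cultures over the same hours, with a median of 2.21, as did 10.8% of all probe sets. The difference between the time changes was called upward for 8 of them, as for 7.2% of all probe sets, the exception being AT2G41730 (0.08, adjusted p = 0.922). The list was chosen with earlier results of these data known, so its counts in oligomycin are a description and no independent result.

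Among hormone genes 0 were called. Auxin response had 5 measured of 25 listed with a median log2 change of -0.07, and its brightest gene, the conjugating enzyme WES1, had 78.3, 105.1 and 82.7 at 4 h, against 112.2, 50.2 and 102.2 at 1 h. Across 11 measured Aux/IAA and GH3 genes the median was -0.14, or -0.05 without 1 h replicate 2 and -0.22 without 1 h replicate 3. IAA20, an auxin response repressor, was dim and had 11.9, 6.8 and 16.1 at 4 h, against 33.7, 20.2 and 34.0 at 1 h, with no overlap (log2 change -0.71, adjusted p = 0.195). The brightest of these 11, GH3.17, had 205.8, 162.0 and 242.1 at 4 h, against 198.0, 152.6 and 178.8 at 1 h (log2 change 0.18, 95% confidence interval -0.11 to 0.46).

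Gibberellin and brassinosteroid genes had 3 measured of 26 listed and a median of 0.24, which was 0.10 without 1 h replicate 1 and 0.40 without 1 h replicate 2. GID1B, a gibberellin receptor, had 71.3, 97.9 and 90.7 at 4 h, against 48.3, 70.0 and 54.7 at 1 h, with no overlap (log2 change 0.48, adjusted p = 0.230). Its relative GID1A, the brightest, had 205.9, 213.7 and 184.3 at 4 h, against 134.3, 210.1 and 164.8 at 1 h, and overlapped (log2 change 0.24, 95% confidence interval -0.13 to 0.62). Abscisic acid and dehydration genes had 4 measured of 33 listed and a median of -0.01. The dehydrin COR47, the brightest, had 1306.9, 1183.8 and 1227.0 at 4 h, against 1003.7, 1096.6 and 1189.2 at 1 h (log2 change 0.18, 95% confidence interval -0.09 to 0.44).

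Cell wall genes had no call. The medians of expansins and xyloglucan transglycosylases were negative under all alternative settings, where the main median over all probe sets was -0.03. Of 18 measured expansins, which loosen walls during growth, 0 rose and 0 fell, and the median log2 change was -0.14 (-0.07 without 1 h replicate 1). All 4 h values lay below all 1 h values for 4 of the 18, as for 9.1% of all probe sets. EXLA1 had 178.6, 163.0 and 159.6 at 4 h, against 208.3, 240.8 and 196.3 at 1 h (log2 change -0.33, adjusted p = 0.233). EXLA2 had 16.4, 17.6 and 20.1 at 4 h, against 29.7, 29.9 and 37.5 at 1 h (log2 change -0.50, adjusted p = 0.307). EXPA4, the brightest, had 280.0, 245.0 and 260.0 at 4 h, against 331.7, 242.6 and 299.3 at 1 h, and overlapped. The summed intensity of the 18 was 1196.9, 1143.3 and 1189.4 at 4 h, against 1492.1, 1220.0 and 1415.1 at 1 h. Their median log2(intensity + 16) was 5.54, 5.64 and 5.37 at 4 h, against 5.81, 5.50 and 5.75 at 1 h. These medians overlapped.

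Xyloglucan transglycosylases, which cut and rejoin wall glucans, had 9 measured genes, 0 called and a median of -0.21. All 4 h values lay below all 1 h values for 2 of the 9, as for 9.1% of all probe sets. XTH33 had 17.7, 40.2 and 39.1 at 4 h, against 60.2, 44.5 and 53.0 at 1 h (log2 change -0.54, adjusted p = 0.272). XTH18 had 264.8, 220.5 and 167.4 at 4 h, against 313.4, 295.0 and 281.8 at 1 h (log2 change -0.44, adjusted p = 0.420). The brightest, XTH19, overlapped (log2 change -0.08, 95% confidence interval -0.35 to 0.19). Cellulose synthases and their relatives had 8 measured genes, 0 called and a median of -0.09. CSLC04, a xyloglucan backbone synthase and the brightest, had 306.5, 306.6 and 298.2 at 4 h, against 388.1, 336.5 and 352.8 at 1 h, with no overlap (log2 change -0.23, adjusted p = 0.291).

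Sugar transferases of the UGT family, which attach sugars to hormones and other small molecules, were the largest of the nuclear families listed. Of 47 genes 0 rose and 0 fell and the median log2 change was 0.10. All 4 h values lay above all 1 h values for 11, against 5.07% of all probe sets, and below them for 2, against 9.1%. The summed intensity of the 47 genes was 3592.9, 3890.4 and 3327.5 at 4 h, against 2659.0, 3278.5 and 3019.2 at 1 h, with no overlap. Such a sum is weighted to the bright members. Their median log2(intensity + 16) was 5.41, 5.48 and 5.45 at 4 h, against 5.33, 5.50 and 5.35 at 1 h. These medians overlapped, so the sums do not show a separation across the family. UGT87A2 had 399.1, 474.8 and 363.7 at 4 h, against 113.0, 354.2 and 219.6 at 1 h (log2 change 0.93, adjusted p = 0.238). UGT76E11 had 50.7, 56.4 and 51.3 at 4 h, against 16.2, 41.4 and 24.8 at 1 h (log2 change 0.70, adjusted p = 0.198). Both were called without 1 h replicate 2 (1.29 and 0.92, adjusted p = 0.0338 and 0.0310).

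UGT76B1, which glucosylates isoleucic acid and salicylate, had 168.3, 223.9 and 181.5 at 4 h, against 115.4, 123.0 and 131.2 at 1 h, with no overlap (log2 change 0.57, adjusted p = 0.128). UGT71B1 had 106.2, 100.3 and 99.5 at 4 h, against 57.3, 69.4 and 75.1 at 1 h (log2 change 0.51, adjusted p = 0.151). In the oligomycin cultures UGT71B1 fell by 0.64 (adjusted p = 0.000921). Neither gene had 4 h values within the range of the 1 h values. In the other direction UGT72E1, which glucosylates lignin precursors, had 125.2, 115.4 and 116.9 at 4 h, against 139.9, 146.6 and 158.6 at 1 h (log2 change -0.28, adjusted p = 0.356). The brightest, UGT74B1 of glucosinolate synthesis, had 542.8, 655.4 and 445.9 at 4 h, against 453.1, 395.9 and 470.1 at 1 h (log2 change 0.29, adjusted p = 0.376).

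UGT74B1 also belongs to the sulfur and glucosinolate list, which had 3 measured of 26 listed, 0 called and a median of 0.20, or 0.08 without 1 h replicate 2. Its brightest gene, BCAT4, the aminotransferase that starts methionine chain elongation, had 1075.9, 1043.0 and 1168.9 at 4 h, against 1051.4, 802.6 and 1016.2 at 1 h (log2 change 0.20, 95% confidence interval -0.03 to 0.43). Tau glutathione transferases had 11 measured, 0 called and a median of 0.08, and the brightest, GSTU20, had a log2 change of -0.07 (95% confidence interval -0.26 to 0.12). None of the 11 separated the times in all arrays. GSTU25, a detoxification gene of the same class, had 127.6, 99.2 and 119.1 at 4 h, against 71.7, 103.8 and 83.8 at 1 h (log2 change 0.36, adjusted p = 0.318). Cytochromes P450 had 22 measured, 0 called and a median of -0.00086, and their brightest, CYP71B6, had a log2 change of 0.02 (95% confidence interval -0.31 to 0.36).

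Transcription factor families had 0 calls. Of 14 measured bZIP genes the median log2 change was -0.01. BZIP61 had 63.6, 54.0 and 69.1 at 4 h, against 96.8, 91.8 and 87.9 at 1 h, the only one of the 14 with no overlap (log2 change -0.47, adjusted p = 0.135). For 9.1% of all probe sets all 4 h values lay below all 1 h values in the same way. The brightest, BZIP53, had a log2 change of 0.03 (95% confidence interval -0.23 to 0.28). Against 5.07% of all probe sets, 2 of 5 measured bHLH genes had all 4 h values above all 1 h values. They were bHLH121, with 186.3, 164.4 and 160.5 at 4 h, against 134.8, 137.9 and 132.8 at 1 h (log2 change 0.30, adjusted p = 0.237), and BHLH101, with 7.4, 10.4 and 7.3 at 4 h, against 1.3, 1.8 and 4.3 at 1 h (log2 change 0.40, adjusted p = 0.351).

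BHLH101 was thus near the bottom of the scale, while bHLH115, the brightest of the 5, had 249.2, 247.0 and 256.3 at 4 h, against 246.3, 252.8 and 239.1 at 1 h and overlapped. Of 6 WRKY genes the brightest, WRKY20, had a log2 change of -0.20 (95% confidence interval -0.43 to 0.02), and the median was 0.0047. Of 6 histone genes the median was 0.06, and the brightest, the histone H2B gene HTB4, had 423.2, 406.3 and 506.9 at 4 h, against 393.4, 377.5 and 404.5 at 1 h, with no overlap (log2 change 0.17, adjusted p = 0.468). Another histone gene, HTR12 of the centromeric histone H3, was dim and separated the times the other way, with 24.4, 15.9 and 24.3 at 4 h, against 35.8, 31.9 and 26.6 at 1 h (log2 change -0.34, adjusted p = 0.342). In the 15 lists with a median within 0.09 of 0, leaving out single arrays gave medians of -0.24 to 0.15, of both signs in 10 lists, so no direction is read from them. The remaining lists had fewer than 3 measured genes and no call.

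**Figure D4:**
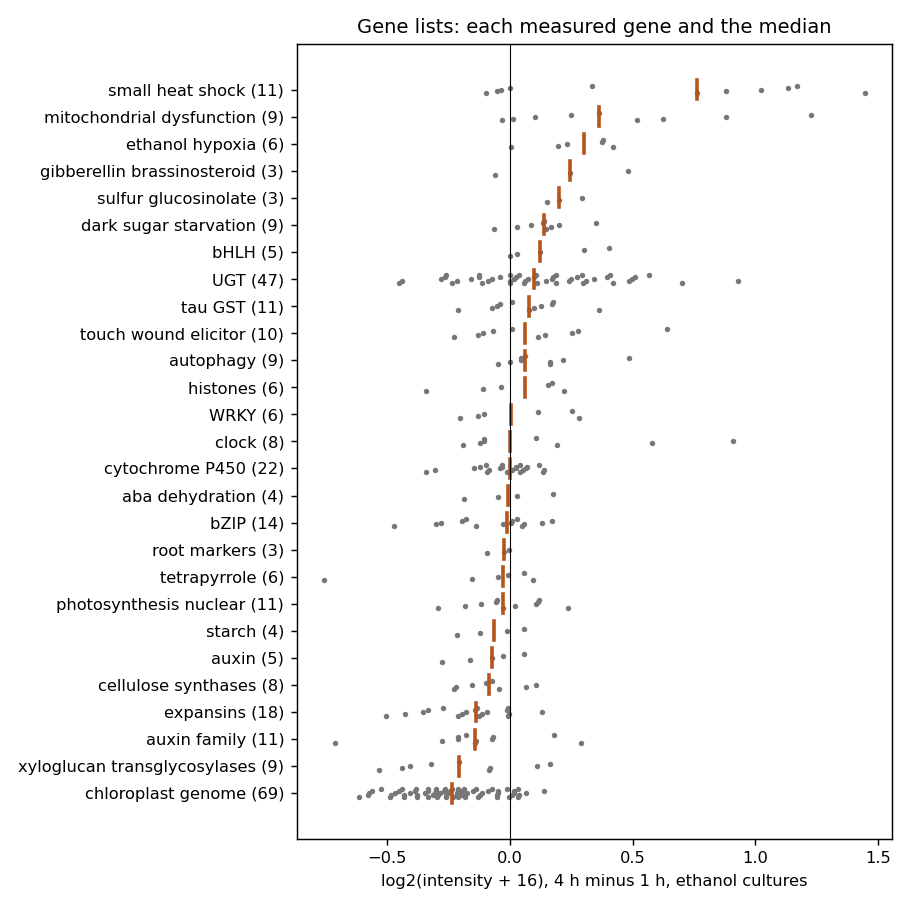
Log2 change of every measured gene of the lists with at least 3 measured genes (number in brackets), 4 h minus 1 h in the ethanol cultures, with the median of each list as a bar. The chloroplast genome has the lowest median, -0.24, and the small heat shock genes, a list written after the values had been seen, the highest, 0.76. None of the genes shown passed the test. The other lists were also chosen with earlier results of these data known.

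Set beside these hours, the oligomycin cultures changed at many more probe sets on the same array type. Their 4 h and 1 h arrays, none of which is in the ethanol groups, gave 2467 rises (10.8%) and 5195 falls (22.8%), with 881 log2 changes above 1 and 443 below -1. Across probe sets the 2 time changes had Pearson's r = 0.247 and Spearman's rho = 0.175, given as a description since probe sets on an array are not independent. Of the 991 ethanol rises at an unadjusted p under 0.05, 377 were called as rises and 152 as falls in oligomycin. Of the 1721 ethanol falls at that level, 621 were called as falls and 86 as rises.

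The difference between the time changes, oligomycin minus ethanol, was called for 4043 probe sets (17.8%), 1637 upward (7.2%) and 2406 downward (10.6%). Scaling to the hybridisation controls turned this split to 1587 upward and 690 downward, and centring on the array medians to 2171 upward and 1497 downward, so the direction of the majority depends on the scaling. Of the genes that separated the times in ethanol, GID1B, UGT87A2 and AT5G40690 rose by 1.39, 2.20 and 1.84 in oligomycin, with called differences of 0.91, 1.28 and 0.96 (adjusted p = 0.00608, 0.0423 and 0.0252). AT1G73600, AT4G35720 and BZIP61 fell by 1.88, 1.54 and 1.08 in oligomycin, with called differences of -0.94, -0.93 and -0.61 (adjusted p = 0.0344, 0.000305 and 0.0109). PORB, COR27 and CCS had time changes of the same sign in both sets of cultures, and their differences of -0.14, 0.86 and -0.02 did not pass the test (adjusted p = 0.700, 0.0601 and 0.955).

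**Figure D5:**
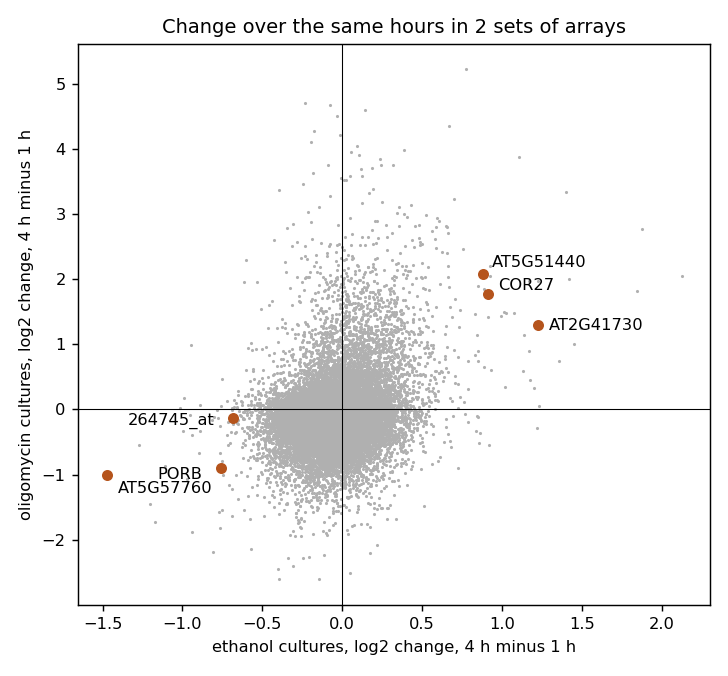
Log2 change of all tested probe sets over the same hours, 4 h minus 1 h, in the ethanol cultures (horizontal) and in the oligomycin cultures (vertical). The vertical spread is wider, and of the labelled probe sets 264745_at is at -0.69 in ethanol and -0.13 in oligomycin.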

How the data were processed

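RNA was hybridised to single-colour Affymetrix arrays, 3 per group in 4 groups. The deposited values are linear array intensity per probe set. The submitters' processing notes name RMA, without a version, but the intensity values deposited by the authors held zeros and shared a 2% trimmed mean near 100, which is not the usual form of RMA output, so the method is unknown. From 22810 probe sets, 64 controls were left out. Limma 3.58.1 in R 4.3.3 fitted the 4 group means to log2(intensity + 16) of 12 arrays (8 residual and 4.14 prior degrees of freedom). P-values were two-sided, with Benjamini-Hochberg adjustment across the 22746 probe sets and a threshold of 0.05. Named genes were the called ones and the brightest uncalled member of each list with at least 3 measured genes, and genes named beyond this rule are said to be. Names came from the platform's probe table and a gene table of TAIR10.1, used for names only. A gene with several probe sets was represented by the brightest. Members, lists and families were chosen with earlier results of these data known. The fit was tested on simulated data. Alternatives were a replicate block, the ethanol arrays alone, quantile normalization, median centring, scaling to hybridisation controls, an added constant of 1 or 64, no dimmest 40%, a trended robust prior, array weights, a threshold of 0.01 and each ethanol array left out. Deviations of same-numbered replicates at 4 h and 1 h correlated at 0.0056, 0.167 and 0.110, so the numbers were not taken as pairs. Labels give no batch or scan date. P-values measure only the spread between these cultures, which the labels call biological replicates. Promoter motifs were not analysed here.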

Additional observations from a re-analysis of the deposited data

Results flagged for a closer look

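In each result below, the change over the same hours differed between the oligomycin and the ethanol cultures by limma's interaction test, which was past the threshold for 4043 probe sets. The values are log2 differences, the time change in oligomycin minus that in ethanol, for 264745_at and the genes named in the text that were past it, 28 in all, 14 of them positive and 14 negative.

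Larger in oligomycin were NDB2 (2.10), XTH18 (2.10), GSTU25 (2.03), CYP71B6 (2.28), AT2G21640 (1.80), WRKY53 (1.51), UGT87A2 (1.28), AT5G51440 (1.19), AT5G40690 (0.96), GID1B (0.91), MCCA (0.86), AKINBETA1 (0.59), 264745_at (0.56) and AT3G15450 (0.50). Of these 264745_at was the one called in ethanol.

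Smaller in oligomycin were BCAT4 (-1.80), GH3.17 (-1.32), UGT71B1 (-1.15), COR47 (-1.11), GSTU20 (-1.09), AT1G73600 (-0.94), AT4G35720 (-0.93), LHCB4.2 (-0.77), EXLA1 (-0.75), UGT72E1 (-0.70), BZIP61 (-0.61), CSLC04 (-0.55), PWD (-0.51) and GI (-0.49). LHCB4.2, a light-harvesting antenna gene, had a log2 change of -0.29 in ethanol (adjusted p = 0.352) and fell by 1.07 in oligomycin (adjusted p = 1.87e-05). UGT71B1 fell by 0.64 in oligomycin, while its 3 values at 4 h in ethanol lay above its 3 values at 1 h. Groups of 3 arrays are too small for a test of single outlying arrays.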

How the results depend on the processing

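The count of 2 calls in ethanol was 1 with a replicate block, on median centring, on scaling to hybridisation controls, with an added constant of 1 and at a threshold of 0.01. It was 4 with a trended robust prior, 43 without the dimmest 40% (17 rises and 26 falls), and 0 on the 6 ethanol arrays alone. Leaving out single arrays gave 0 to 133, the 133 without 1 h replicate 2 and at most 5 without another. The 2 lists of 43 and 133 shared 22 probe sets. At an unadjusted p under 0.05 the ethanol arrays moved to 1695 rises and 974 falls on median centring and to 276 and 2482 on hybridisation scaling, against 991 and 1721, and the median of all log2 changes moved to 0.02 and -0.10, so the excess of falls depends on the scaling. The 4043 called differences became 2277 with hybridisation scaling and 2197 at a threshold of 0.01, and 3416 to 4017 without single arrays. Of 1524 values of named genes under alternatives, 1481 kept their side of the threshold and their sign where called, 14 lost and 29 gained a call, and 0 called values changed sign. Of 430 list medians 14 moved by more than the spread between arrays and 47 changed sign, in 13 lists whose medians were no further than 0.0760 from 0.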
